A study of Homo sapiens with 12 samples.

Results

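The expression of 10 genes of WNT signalling was followed in 4 groups of ARPE-19, a widely used human cell line derived from the pigmented layer behind the retina, the retinal pigment epithelium (RPE). They were taken by gene name from a deposited table of read counts, in which 10 of 60605 lines carried these names. They comprise the ligands WNT5A, WNT5B and WNT7B, the secreted inhibitors DKK1, DKK2, DKK3 and SFRP1, and the targets and nuclear factors AXIN2, LEF1 and TCF7L1. The groups were WT, cells with no named open reading frame (ORF), GFP, a stable line with the fluorescent protein as its ORF, GSTA4, a stable line with glutathione S-transferase alpha 4, and OSK. The labels do not spell out OSK, and it was read as the reprogramming factors POU5F1 (OCT4), SOX2 and KLF4. Poly(A) RNA of the stable lines was sequenced after 4 days of ORF expression, with 3 libraries in each group. The promoter of the ORFs, the culture of the WT cells and the number of stable lines behind each group are not given in the sources used here. The 3 libraries of a group may therefore share a line, p-values measure only the spread between these libraries, and an ORF cannot be told apart from any other difference between lines.

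WNT ligands are secreted lipid-modified proteins that bind Frizzled receptors on the cell surface. In the canonical branch, Frizzled and the co-receptors LRP5 and LRP6 stop a complex of AXIN, APC and GSK3 from marking beta-catenin for destruction, and beta-catenin then joins TCF/LEF proteins on DNA. In the other branches, WNT5A and its relatives act through ROR receptors on cell polarity and calcium without beta-catenin. DKK proteins and secreted Frizzled-related proteins hold the pathway back outside the cell, DKK1 by binding LRP5 and LRP6 and SFRP1 by binding ligands and Frizzled. In the developing eye, WNT signalling takes part in setting RPE apart from neural retina.

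Total counts ran from 12630675 to 17045454 reads a library. Levels are given as CPM, the share of a library's reads scaled so that libraries can be compared (TMM, trimmed mean of M values). The floor, set at the 3 reads that an observed 0 still permits, was 0.177 to 0.228 CPM. It covers counting error only. Reads were found on 27349 named genes in GFP replicate 1 and on 19488 to 22073 in each other library. WT replicate 1 differed most from the rest of its group. Each was left out in alternative runs, singly and together, and only some of those values are printed below. Marker levels are given with both libraries kept. The ORF genes were highest in the groups that carry them, GSTA4 at 395.9 to 430.1 CPM and POU5F1, SOX2 and KLF4 at 621.9 to 947.4 CPM. Of 14 RPE markers, 11 passed the filter on low counts, but RPE65, the visual cycle isomerase, had at most 10 reads in any library. The summed level of these 14 was 2417 to 2655 CPM in WT, 2184 to 2518 in GFP, 1570 to 1643 in GSTA4 and 1386 to 1456 in OSK. The keratin genes KRT8 and KRT18 made up most of it, at means of 1245 and 431.7 CPM in WT and 841.7 and 313.3 in GFP, and single markers did not all follow the sum. In GFP against WT 8 of the 11 tested RPE markers were higher and 2, the keratins, lower. Against GFP, 1 (LRAT) was higher and 8 lower in GSTA4, and 11 were lower in OSK. By the same test, described below, 11% of all genes tested were higher and 11.2% lower in GFP against WT. Against GFP these shares were 14.7% and 14.6% in GSTA4 and 23.1% and 22.8% in OSK. The 8 markers of cycling cells summed to 127.9 to 146.7 CPM in WT, 271 to 279 in GFP, 215.6 to 226.4 in GSTA4 and 500.9 to 575.6 in OSK. The 10 fibroblast markers summed to 789.8 to 808.3, 728.6 to 797.7, 562.1 to 588.8 and 358.3 to 413.3 CPM in the same order, with COL3A1, DCN and LUM at or under the floor in every library. PDGFRB made up most of this sum, at means of 650.3, 659.1, 538.7 and 342.2 CPM. Of the 4 fibroblast markers tested, 2 were lower (COL1A1 and PDGFRB) and 1 higher (TWIST1) in GSTA4 against GFP, and 3 were lower in OSK. The 8 pluripotency markers summed to at most 4.78 CPM in any library, with 7 of 8 at or under the floor in all OSK libraries. The part of these differences in the results on WNT genes was not tested. In bulk RNA, fewer cells of a kind and less RNA per cell cannot be told apart.

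Genes were tested with edgeR's quasi-likelihood test on all 15179 genes that passed the filter, with p-values adjusted over all of them by Benjamini-Hochberg and 0.05 as the threshold. Of the 10 WNT genes, 8 passed the filter. WNT7B had 3 reads over the 12 libraries, with at most 2 in a library. DKK2, an inhibitor close to DKK1, had 4 and 1 reads in GFP replicates 1 and 2, 1 read in OSK replicate 3 and none elsewhere. These genes were not detectable above the floor in most libraries at this depth, and no fold is given for them. Of the 8 genes tested, 7 differed somewhere among the 4 groups by the F test, where 66.9% of all genes tested did. The number was 4 without OSK replicate 2. The 7 include WNT5B, which passed the filter mainly through GFP.

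**Figure D1:**
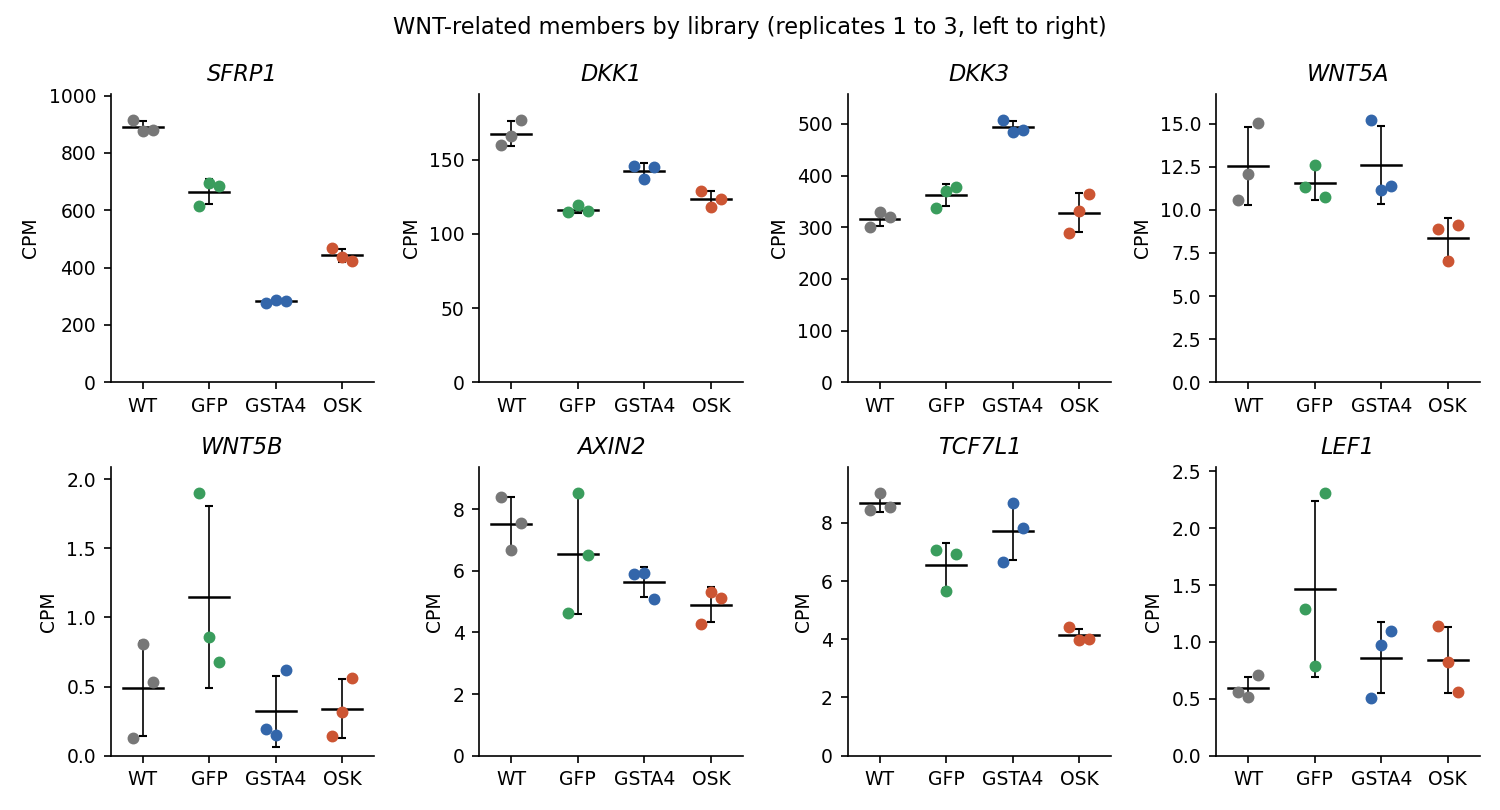
CPM of the 8 tested WNT genes in each of the 12 libraries, with points for replicates 1 to 3 from left to right, a bar for the mean of 3 and whiskers for the SD. SFRP1 takes 4 separate levels, DKK3 is highest in the GSTA4 libraries and TCF7L1 lowest in the OSK libraries, while WNT5B and LEF1 stay under 2.4 CPM.

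The secreted inhibitors held the clearest differences. SFRP1 fell 2.36-fold in GSTA4 and 1.503-fold in OSK against GFP, and was 1.34-fold lower in GFP than in WT. Its levels were 916.0, 875.7 and 878.6 CPM in WT replicates 1 to 3, 615.2, 695.8 and 683.4 in GFP, 467.2, 436.0 and 423.7 in OSK, and 278.0, 285.2 and 283.1 in GSTA4. No library of one group reached the range of the next, so that the order was WT, GFP, OSK, GSTA4. The log2 fold change was -1.24 (SE 0.0614, edgeR adjusted p 3.52e-12) in GSTA4 against GFP. It was -0.59 (SE 0.0605, adjusted p 8.91e-08) in OSK against GFP and -0.42 (SE 0.0601, adjusted p 4.97e-05) in GFP against WT. The direct comparison put SFRP1 higher in OSK than in GSTA4, by 0.65 (SE 0.061, adjusted p 1.79e-08). The difference from WT was larger than that from GFP, at -1.66 in GSTA4 and -1.01 in OSK.

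DKK3, a member of the Dickkopf family that, unlike DKK1, is not known to act mainly through LRP5 and LRP6, rose in GSTA4. It stood at 508.2, 483.7 and 488.4 CPM in GSTA4, 338.0, 370.6 and 378.1 in GFP, 288.6, 331.9 and 365.1 in OSK, and 301.0, 329.1 and 319.0 in WT. The gene lies at chr11:11963106-12009769 on the minus strand (GRCh38, GENCODE 29). All GSTA4 libraries lay above the other 9, while the OSK libraries overlapped those of GFP and of WT. In GSTA4 it was 1.36-fold higher than in GFP, or 0.45 on the log2 scale (SE 0.0727, edgeR adjusted p 8.79e-05), and 1.56-fold higher than in WT (adjusted p 6.52e-07). OSK against GSTA4 gave -0.59 (SE 0.0728, adjusted p 9.88e-07). OSK against GFP gave -0.14 with a 95% interval from -0.29 to 0.01, which missed the threshold (adjusted p 0.121), and without OSK replicate 3 it did, at -0.22 (adjusted p 0.0249). It passed too with library size alone as the scaling, at -0.21 (adjusted p 0.0131), and with GFP replicate 1 and WT replicate 1 both left out, at -0.19 (adjusted p 0.0114). GFP against WT gave 0.20 and missed the threshold (adjusted p 0.0597), but passed without GFP replicate 1, at 0.24 (adjusted p 0.0325), without OSK replicate 1 (0.0327) or OSK replicate 3 (0.0416), and with GFP replicate 1 and WT replicate 1 both left out, at 0.21 (adjusted p 0.0305). It passed too with library size alone as the scaling (0.0369), a minimum mean of 1 CPM (0.0436) and the replicate number as a block (0.0267).

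DKK1, the inhibitor that takes LRP5 and LRP6 away from WNT, changed by small amounts whose direction in GSTA4 depended on the control. Its levels were 160.1, 166.2 and 177.1 CPM in WT, 145.8, 137.1 and 145.5 in GSTA4, 129.0, 118.4 and 123.8 in OSK, and 114.6, 119.3 and 115.3 in GFP. The WT libraries were above all others, and OSK and GFP overlapped. The gene lies at chr10:52314296-52318042 on the plus strand, and 9.61% of its exon length overlaps the antisense gene PRKG1-AS1, which had 0 to 25 reads a library and cannot be told apart from it if counting ignored strand. GSTA4 was 1.23-fold higher than GFP, or 0.29 on the log2 scale (SE 0.0588, edgeR adjusted p 0.000696), but lower than WT, by -0.23 (SE 0.058, adjusted p 0.00322). GFP itself differed from WT by -0.53 (SE 0.0586, adjusted p 3.04e-06). OSK was not past the threshold against GFP, at 0.09 with an interval from -0.04 to 0.21 (adjusted p 0.241), and was lower than WT by -0.44 (adjusted p 2.68e-06). OSK was lower than GSTA4 by -0.21 (SE 0.0586, adjusted p 0.00596).

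The upstream sequences of DKK1 and TCF7L1 are shown because DKK1 is a known beta-catenin target and TCF7L1 was lower in OSK in every alternative run. RefSeq sequences (GRCh38.p14) were held for 5 of the 10 genes, DKK1, LEF1, TCF7L1, WNT5A and WNT5B. They were searched on both strands for the TCF/LEF motifs CTTTGAT and CTTTGTT, which differ in 1 base and so cannot match at the same place, over the 250 bases before each start. DKK1 lies at chr10:52314031-52314280 on the plus strand for this window and TCF7L1 at chr2:85133142-85133391 on the plus strand. Capitals mark the motif.
DKK1: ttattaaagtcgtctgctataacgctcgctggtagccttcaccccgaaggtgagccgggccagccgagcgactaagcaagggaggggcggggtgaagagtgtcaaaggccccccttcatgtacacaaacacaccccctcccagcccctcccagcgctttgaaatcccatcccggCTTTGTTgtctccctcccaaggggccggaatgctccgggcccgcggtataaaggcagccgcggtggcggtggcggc
TCF7L1: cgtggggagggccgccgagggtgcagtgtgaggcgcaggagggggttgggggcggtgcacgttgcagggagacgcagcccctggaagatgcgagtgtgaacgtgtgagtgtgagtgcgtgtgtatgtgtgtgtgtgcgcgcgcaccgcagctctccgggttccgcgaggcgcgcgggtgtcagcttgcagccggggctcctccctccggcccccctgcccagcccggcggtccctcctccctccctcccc
DKK1 held CTTTGTT once, on its own strand, starting 76 bases before the start. Neither motif was found in the other 6 windows of LEF1, TCF7L1, WNT5A and WNT5B. Over all 35116 windows of this length, 4.5% held CTTTGTT and 6.6% held either motif, so a match is common and describes only these letters.

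Reads per gene depend on length, so levels of different genes were set side by side only as CPM per kilobase of the exons in GENCODE 29. On this scale SFRP1 was the highest of the 3 detected inhibitors among these genes in WT, at 187.0 ± 4.72 CPM per kilobase (SD, n = 3) against 76.1 ± 3.90 for DKK1 and 62.5 ± 2.81 for DKK3. In GFP the values were 139.6 ± 9.12, 52.8 ± 1.15 and 71.6 ± 4.21. In OSK they were 92.9 ± 4.71, 56.1 ± 2.40 and 64.9 ± 7.58. In GSTA4 the order was another, with DKK3 at 97.5 ± 2.57, DKK1 at 64.7 ± 2.24 and SFRP1 at 59.3 ± 0.778. The annotation used for counting is not given in the sources used here, so these levels carry the length of a model that may differ from it.

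**Figure D2:**
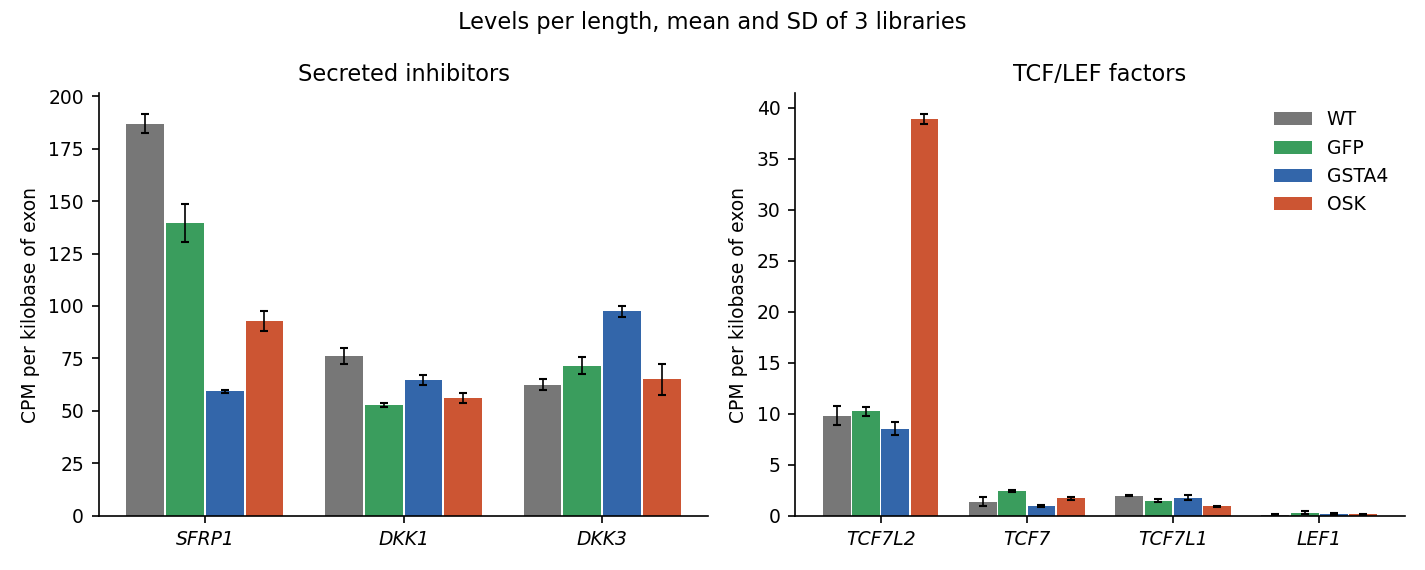
CPM per kilobase of exon in the 4 groups, as the mean of 3 libraries with the SD as whiskers, for 3 secreted inhibitors on the left and the TCF/LEF factors on the right. SFRP1 leads the inhibitors in 3 groups and DKK3 leads in GSTA4, and TCF7L2 stands at 38.9 in OSK against 8.55 to 10.3 in the other groups.

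Among the ligands, WNT5A was lowest in OSK. WNT5A had 10.56, 12.10 and 15.03 CPM in WT, 11.31, 12.60 and 10.72 in GFP, 15.23, 11.17 and 11.41 in GSTA4, and 8.88, 7.02 and 9.13 in OSK. The gene lies at chr3:55465715-55490539 on the minus strand. All OSK libraries lay under all others, and WT, GFP and GSTA4 overlapped one another. OSK was 1.39-fold lower than GFP, or -0.47 on the log2 scale (SE 0.165, edgeR adjusted p 0.0242), and 1.52-fold lower than GSTA4, at -0.60 (SE 0.163, adjusted p 0.00437). The call against GFP was lost with DESeq2 (adjusted p 0.0547), without GFP replicate 2 (-0.40, adjusted p 0.0977) and without OSK replicate 2 (-0.35, adjusted p 0.128), whereas the call against GSTA4 held in every alternative run. GSTA4 against GFP gave 0.13, with an interval from -0.20 to 0.46.

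WNT5B, the paralog of WNT5A, was near the floor. Its reads were 25, 12 and 10 in GFP replicates 1 to 3 and 2 to 11 in the other 9 libraries, or 0.124 to 0.807 CPM against 0.679 to 1.90 in GFP. Only the 3 GFP libraries and WT replicate 2 had 10 or more reads, so it passed the filter mainly through GFP, and its lower level elsewhere is not independent of the filter. For that reason its log2 fold changes are a description only. They were -1.80 (SE 0.663, edgeR adjusted p 0.0468) in GSTA4 and -1.71 (SE 0.656, adjusted p 0.0379) in OSK against GFP. Without GFP replicate 1 these were -1.24 (adjusted p 0.255) and -1.16 (adjusted p 0.221). The call in GSTA4 was also lost without WT replicates 2 or 3, GFP replicate 2, GSTA4 replicates 1 or 2 or any OSK library, and the call in OSK without GFP replicate 2 or OSK replicates 1 or 2. Both were lost with DESeq2, against WT and with GFP replicate 1 and WT replicate 1 both left out. The call in GSTA4 was lost with no filter too (adjusted p 0.0522). It held in 6 of the 19 alternatives that gave a value, and the call in OSK in 12 of 19. The range of adjusted p over all alternatives was 0.0282 to 0.58 in GSTA4 and 0.0238 to 0.626 in OSK. The same library had the most reads, alone or tied, for 22 of the 29 genes of the wider WNT list that had reads but did not pass the filter.

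Of the 19 human WNT genes, 7 passed the filter. The other 12 included 2 with no reads, and none had more than 15 reads in a library. Beside WNT5A and WNT5B, WNT2B stood at 11.1, 15.9, 16.4 and 7.34 CPM per kilobase in WT, GFP, GSTA4 and OSK, WNT9A at 6.09, 5.43, 6.29 and 9.17, and WNT5A at 1.70, 1.56, 1.70 and 1.13. WNT2B was thus above WNT9A in WT, GFP and GSTA4 and below it in OSK. WNT2B and WNT3, ligands of the canonical branch, fell in OSK against GFP. Their log2 fold changes were -1.12 (SE 0.130) and -1.82 (SE 0.261), with edgeR adjusted p-values of 5.26e-07 and 7.85e-06. WNT9A rose in OSK by 0.75 (SE 0.120, adjusted p 2.97e-05). Between GSTA4 and GFP, WNT2B, WNT3 and WNT9A stood at 0.04, -0.05 and 0.21, and all missed the threshold (adjusted p 0.83, 0.901 and 0.223). WNT2B was higher than in WT in both lines, by 0.53 in GFP (edgeR adjusted p 0.00567) and 0.57 in GSTA4 (0.00131). Its OSK libraries, at 83.99 to 100.4 CPM, overlapped those of WT, at 98.54 to 168.2.

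AXIN2 and LEF1, the targets of beta-catenin described next, were low and their groups mostly overlapped. Other direct targets are given further below. AXIN2, a scaffold of the destruction complex and a direct target of beta-catenin, had 8.39, 6.67 and 7.54 CPM in WT, 4.63, 8.52 and 6.51 in GFP, 5.90, 5.92 and 5.08 in GSTA4, and 4.26, 5.31 and 5.13 in OSK. GFP alone spanned nearly the whole range, and the WT libraries lay above those of GSTA4 and OSK. For GSTA4 against GFP, AXIN2 missed the threshold at -0.22 with an interval from -0.64 to 0.20 (edgeR adjusted p 0.449). It was not past it in OSK against GFP either, at -0.42 with an interval from -0.84 to 0.01 (adjusted p 0.0989), but was so without GFP replicate 1, at -0.61 (adjusted p 0.0161). OSK was lower than WT by -0.62 (SE 0.199, adjusted p 0.0149). A further GENCODE 29 gene, whose name was not found in the counted table, covers 25.2% of the exon length of AXIN2 on the same strand. Reads there may not all have been counted for AXIN2.

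LEF1, which joins beta-catenin on DNA and is also its target, had 7 to 34 reads a library. Its levels were 0.513 to 0.707 CPM in WT, 0.788 to 2.31 in GFP, 0.508 to 1.099 in GSTA4 and 0.562 to 1.14 in OSK. LEF1 shares 5.2% of its exon length with the antisense gene LEF1-AS1, which had 0 to 6 reads. The GFP libraries were above those of WT and overlapped the other groups. None of the 4 main comparisons passed, the nearest being GFP against WT at 1.29 with an interval from 0.29 to 2.28 (edgeR adjusted p 0.0581). Without GFP replicate 2 it was 1.59 (adjusted p 0.0383).

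TCF7L1, the TCF protein best known as a repressor of WNT targets, was lowest in OSK. It had 8.45, 9.02 and 8.54 CPM in WT, 6.66, 8.70 and 7.83 in GSTA4, 7.06, 5.66 and 6.92 in GFP, and 4.41, 3.98 and 4.01 in OSK. The gene lies at chr2:85133410-85310388 on the plus strand. The OSK libraries lay under all 9 others, and GSTA4 overlapped both controls. OSK was 1.58-fold lower than GFP, or -0.66 on the log2 scale (SE 0.171, edgeR adjusted p 0.00326), and 1.87-fold lower than GSTA4, at -0.90 (SE 0.168, adjusted p 0.000147). GSTA4 against GFP gave 0.24 with an interval from -0.10 to 0.57 (adjusted p 0.296).

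The other TCF genes moved differently. TCF7L2, the most abundant TCF factor per length here, had 263.6, 264.7 and 258.0 CPM in OSK against 52.6 to 72.4 in the other 9 libraries. The log2 fold change of TCF7L2 was 1.92 (SE 0.0714, edgeR adjusted p 1.1e-14) in OSK against GFP, a 3.795-fold rise. TCF7, chosen here after its values were seen to complete the family, had 23.84 to 25.04 CPM in GFP, 15.9 to 18.8 in OSK, 8.95 to 16.2 in WT and 8.62 to 10.4 in GSTA4. It was at -1.35 from GFP (SE 0.164, adjusted p 2.22e-06) in the GSTA4 line and at -0.51 (SE 0.154, adjusted p 0.0101) in OSK, while OSK against WT gave 0.32 (adjusted p 0.114).

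Read by comparison, 4 of the 8 tested WNT genes were past the threshold in GSTA4 against GFP, where 29.2% of all genes tested passed. They were 2 higher and 2 lower, against 14.7% and 14.6% of all genes. Between OSK and GFP 4 passed, where 45.9% of all genes did, and all 4 were lower and 0 higher, against 22.8% and 23.1%. That number was 2 with DESeq2, without GFP replicate 2 and without OSK replicate 2. The lower genes in GSTA4 and in OSK against GFP include WNT5B, which passed the filter mainly through GFP. Between GFP and WT 2 passed, DKK1 and SFRP1, both lower, where 22.2% of genes passed, 11.2% lower and 11% higher. Between OSK and GSTA4 5 passed, where 47.8% did, of which 4 were lower and 1 higher, against 23.8% and 24.1%. Set against WT, 3 passed in GSTA4, 2 lower and 1 higher, where 38.6% of genes passed, 19% lower and 19.7% higher. In OSK against WT 5 were lower and 0 higher, where 45.4% of genes passed, 22.7% in each direction. Several of these comparisons share control libraries, and with 8 genes the counts are a description.

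Groups did not overlap for 4 of the 8 genes in GSTA4 against GFP, where 42.3% of all genes tested did not, and for 4 in OSK against GFP, where 54.7% did not. The number was 5 in GFP against WT, where 34.6% of genes did not overlap, and 5 in OSK against GSTA4, where 58% did not. Against WT it was 4 for GSTA4, with 49% of all genes, and 5 for OSK, with 53.5%. WNT5B is among the genes without overlap in GSTA4 and in OSK against GFP.

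**Figure D3:**
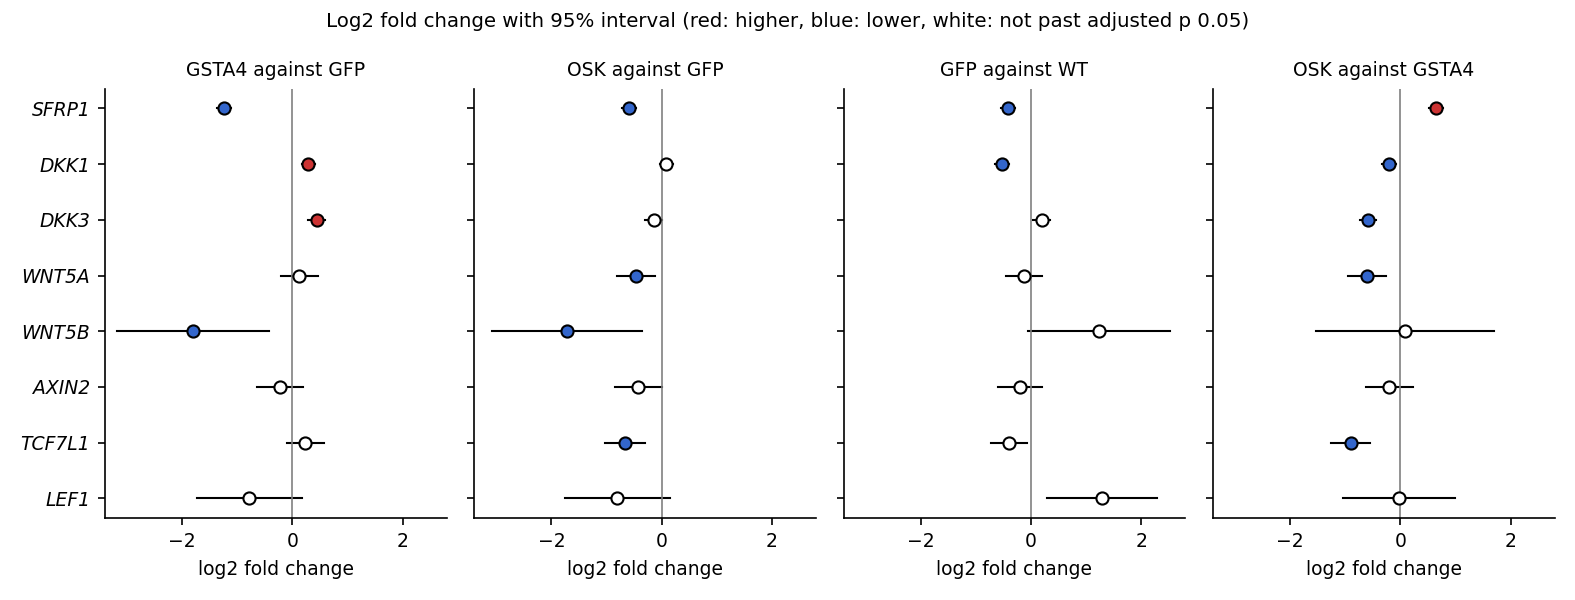
Log2 fold change of the 8 tested WNT genes in 4 comparisons, with 95% intervals, red where higher, blue where lower and white where the adjusted p was not under 0.05. SFRP1 lies left of 0 in the first 3 panels and right of 0 in OSK against GSTA4, and the intervals of WNT5B and LEF1 are the widest.

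A wider list of 120 other WNT pathway genes in 9 roles gave the setting, of which 90 were tested. In GSTA4 against GFP 17 rose and 26 fell, with a median log2 fold change of -0.08 against 0.01 over all genes tested. In OSK against GFP 25 rose and 36 fell, with a median of -0.18 against -0.02. These 25 include KREMEN2, which passed the filter only through the OSK libraries. KREMEN2 is also among the genes higher in OSK against GSTA4 and against WT below. The 36 include TRABD2B, NKD1 and SP5, at 0.0711 to 0.316, 0.284 to 0.443 and 0.213 to 0.506 CPM in OSK. They passed the filter only through other groups, so their lower level in OSK is not independent of it. In GFP against WT 18 rose and 14 fell, and in OSK against GSTA4 29 were higher and 33 lower. The share past the threshold was 47.8%, 67.8%, 35.6% and 68.9%, against 29.2%, 45.9%, 22.2% and 47.8% of all genes tested. Against WT, 15 were higher and 31 lower in GSTA4, and 25 were higher and 41 lower in OSK. These were 51.1% and 73.3% of the list, against 38.6% and 45.4% of all genes tested. The counts by role that follow are to be read beside the shares of all genes, 14.7% higher and 14.6% lower in GSTA4 against GFP and 23.1% higher and 22.8% lower in OSK against GFP, and with so few genes in a role they are a description.

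Of 15 receptors and co-receptors, 7 fell and 2 rose in GSTA4, and 8 fell and 2 rose in OSK. FZD8 was at 13.4 to 14.7 CPM in GSTA4 and 35.6 to 47.97 in GFP, or -1.54 on the log2 scale (SE 0.110, edgeR adjusted p 9.21e-10), and rose by 0.35 in OSK (adjusted p 0.0065). FZD1 went the other way, up by 0.61 in GSTA4 (adjusted p 5.24e-07) and down by 0.72 in OSK on the log2 scale (-0.72, adjusted p 2.94e-08). FZD2 fell in both, by -0.57 (adjusted p 0.000345) and -0.99 (adjusted p 2.28e-07). ROR1 and ROR2, receptors of WNT5A named after their values were seen, differed from each other. ROR2 rose by 1.23 in GSTA4 (SE 0.175, adjusted p 1.78e-05) and 1.31 in OSK (SE 0.175, adjusted p 3.2e-06). ROR1 fell by 0.63 in OSK (-0.63, adjusted p 6.82e-06) and stood at -0.02 in GSTA4 (adjusted p 0.899).

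For ligand maturation and release, 2 of 7 rose and 2 fell in GSTA4, and 3 rose and 3 fell in OSK. The 3 lower in OSK include TRABD2B, which passed the filter only through other groups. GPC3, a glypican that binds WNT and Frizzled at the cell surface, had 53.1, 49.0 and 52.2 CPM in GSTA4, 4.80 to 5.01 in GFP, 3.81 to 4.54 in WT and 2.13 to 2.88 in OSK. Its GSTA4 libraries stood apart from all others, with a 10.4-fold rise over GFP (log2 fold change 3.38, SE 0.117, edgeR adjusted p 1.44e-14). PORCN, the enzyme that attaches the lipid to WNT, rose in OSK by 1.31 (SE 0.119, adjusted p 1.47e-08) and stood at 0.03 in GSTA4 (adjusted p 0.886). GPC6 rose in OSK by 0.96 (adjusted p 4.69e-09) and fell in GSTA4 (-0.56, adjusted p 3.95e-05). WLS, the carrier of WNT to the surface and named after its values were seen, rose in GSTA4 by 0.22 (adjusted p 0.0135), and by 0.16 without GFP replicate 1, past the threshold no more (adjusted p 0.0779).

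Of the 9 R-spondin genes and their partners, 2 were tested. LGR4, an R-spondin receptor, rose in OSK by 0.93 (SE 0.0819, edgeR adjusted p 8.63e-09) and fell in GSTA4 (-0.36, adjusted p 0.00346). ZNRF3, the ligase that removes Frizzled, fell in OSK (-0.52, adjusted p 7.74e-05, but -0.20 and adjusted p 0.078 against WT) and stood at -0.26 in GSTA4 (adjusted p 0.032), a call lost with DESeq2 (adjusted p 0.0698), with no filter (0.176), against WT, and without GFP replicate 1 (0.0896), GFP replicate 3 (0.0524) or any GSTA4 library (0.0712 to 0.0797).

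The inhibitors outside the 10 genes were led by APCDD1, a membrane inhibitor and WNT target, which followed the opposite course to SFRP1 in GSTA4. APCDD1 had 11.6, 7.42 and 8.86 CPM in GSTA4, 1.97 to 2.22 in GFP, 4.97 to 5.95 in WT and 1.07 to 2.04 in OSK. It was 4.47-fold higher in GSTA4 than in GFP (log2 fold change 2.16, SE 0.233, edgeR adjusted p 4.44e-07), or 1.70-fold higher than in WT (adjusted p 0.00575). SFRP4 fell in OSK (-1.36, SE 0.147, adjusted p 1.79e-07) and KREMEN1, the DKK1 co-receptor, fell in GSTA4 (-0.74, SE 0.0742, adjusted p 1.44e-07).

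Of 9 other direct targets tested, 2 rose and 5 fell in GSTA4, and 0 rose and 6 fell in OSK, both against GFP. The 6 include NKD1 and SP5, near the floor in OSK at 0.284 to 0.443 and 0.213 to 0.506 CPM. They passed the filter only through other groups, so their lower level in OSK is not independent of it. SP5 also missed the threshold of the edgeR F test over the 4 groups (adjusted p 0.071). Against WT, 3 were higher and 3 lower in GSTA4, where 19.7% and 19% of all genes were. In OSK against WT, 1 was higher and 4 were lower, where 22.7% of all genes were in each direction. BAMBI stood at 37.6 to 41.2 CPM in OSK and 69.8 to 84.95 in GFP (edgeR adjusted p 5.32e-09), lower in OSK, and TNFRSF19 fell in GSTA4 (-0.65, adjusted p 1.4e-05) and in OSK (-0.53, adjusted p 6.22e-05). BAMBI in GSTA4 was at -0.27 (adjusted p 0.0187), a call lost without GFP replicate 2 (0.0729), GFP replicate 3 (0.0762), GSTA4 replicate 1 (0.0819) or GSTA4 replicate 3 (0.0502). APCDD1 and the nuclear factor TCF7 are also in this list and moved as given above.

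Among 19 cytoplasmic transducers, 5 rose and 3 fell in GSTA4, and 7 rose and 6 fell in OSK. APC, the scaffold that presents beta-catenin for destruction, fell in GSTA4 (-1.01, SE 0.0664, edgeR adjusted p 2.77e-10) and in OSK (-0.73, SE 0.0657, adjusted p 1.18e-08), from 165.1 to 171.3 CPM in GFP, and stood at 116.5 to 140.7 in WT. DVL3, which relays the signal from Frizzled, fell in OSK (-0.84, adjusted p 6.66e-10). BTRC, which marks beta-catenin for breakdown, rose in OSK by 0.75 (adjusted p 5.98e-08). CTNNB1, the gene of beta-catenin and named after its values were seen, rose in GSTA4 by 0.38 (SE 0.0548, adjusted p 2.25e-05) and was -0.18 in OSK (adjusted p 0.0124), the latter lost with no filter (adjusted p 0.0767), without GFP replicate 2 (0.0524) and without OSK replicate 3 (0.0615).

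Of 14 nuclear factors other than LEF1 and TCF7L1, 1 rose and 5 fell in GSTA4, and 6 rose and 4 fell in OSK. BCL9L, a beta-catenin partner, fell in GSTA4 (-0.55, SE 0.0683, edgeR adjusted p 3.01e-06) and rose in OSK by 0.40 (adjusted p 5.33e-05). TLE3, a Groucho co-repressor of TCF, did the same, at -1.103 (SE 0.143, adjusted p 5.42e-06) and 0.64 (adjusted p 0.000391).

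In the planar polarity and calcium branch, 6 of 20 rose and 3 fell in GSTA4, and 5 rose and 8 fell in OSK. NFATC2, a transcription factor activated by calcium, had 196.3, 157.0 and 183.1 CPM in OSK and 0.513 to 4.19 in the other 9 libraries. Its log2 fold change of 6.84 in OSK against GFP (SE 0.201, edgeR adjusted p 2.78e-16) was the largest in the wider list. In GSTA4 against GFP, NFATC2 was called higher at 0.89 (adjusted p 0.0442), with groups that overlapped. That call was lost with DESeq2 (0.13), with only the 6 libraries compared (0.0837) and without GSTA4 replicate 3 (0.294), among others. DAAM2, a formin downstream of Dishevelled, fell in GSTA4 (-1.20, SE 0.0678, adjusted p 2.76e-11) and OSK (-0.99, SE 0.0673, adjusted p 1.58e-10). In GSTA4, CAMK2D rose by 0.80 (SE 0.0792, adjusted p 1.39e-07), and in OSK was at -0.21 (adjusted p 0.0463), against 0.36 when compared with WT. The call of CAMK2D in OSK against GFP was lost in 12 of its 21 alternatives and turned in sign against WT.

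**Figure D4:**
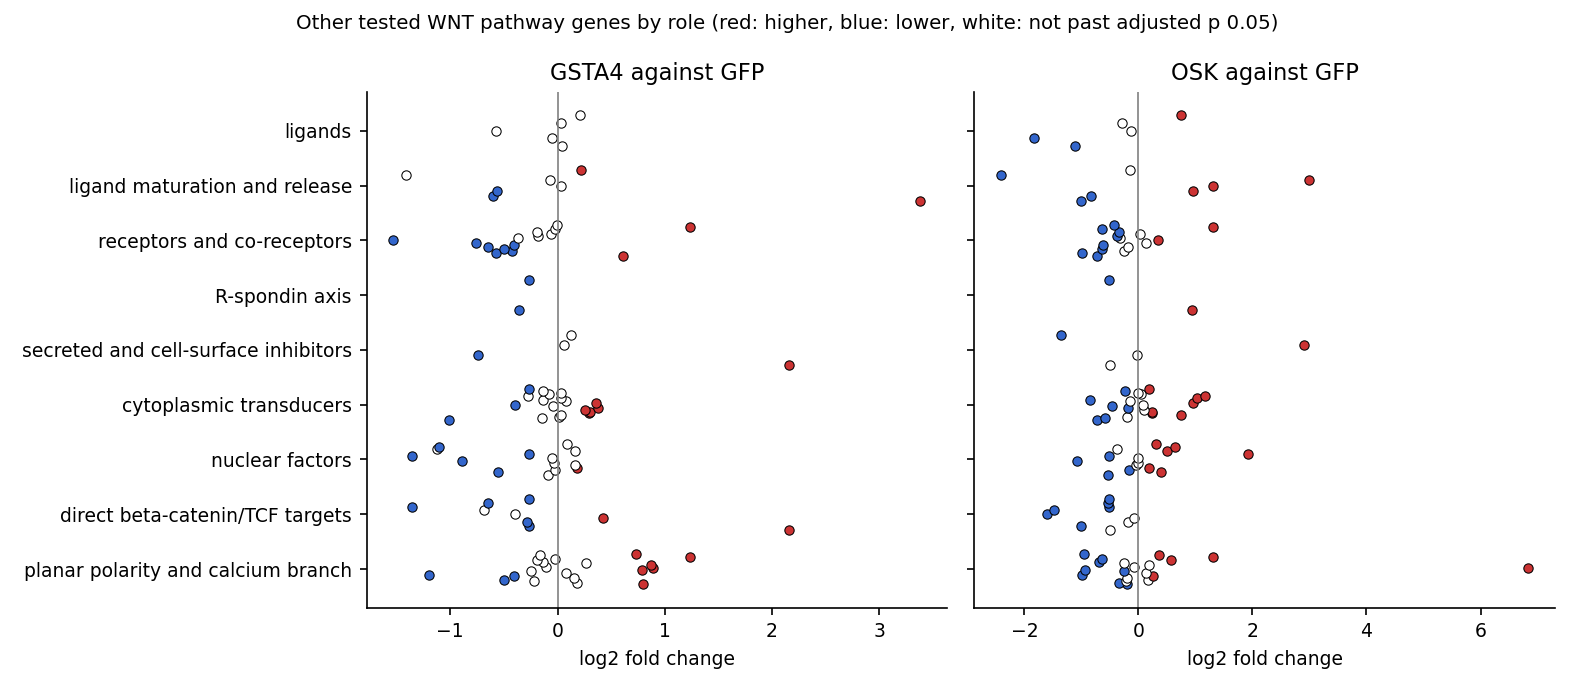
Log2 fold change of the 90 other tested WNT pathway genes by role, in GSTA4 against GFP on the left and OSK against GFP on the right, with 1 point per gene, red where higher, blue where lower and white where the adjusted p was not under 0.05. GPC3 at 3.38 is the farthest point on the left panel and NFATC2 at 6.84 on the right, and genes in more than 1 role appear in each. The right panel includes KREMEN2, which passed the filter only through the OSK libraries. It also includes TRABD2B, NKD1 and SP5, which passed the filter only through other groups.

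The genes whose log2 CPM followed each WNT gene most closely over the 12 libraries were listed as a description, since these points share the 4 groups. SFRP1 was followed by IER3 and SMAD7, at Pearson's r of 0.991 and 0.987 over 12 libraries. TCF7L1 was followed by ROCK2 and VEZF1 (0.978 and 0.973), DKK3 by ABLIM3 and FGF5 (0.968 and 0.965), and DKK1 by TENM3 and KCTD17 (0.956 and 0.951). For WNT5A they were CLEC11A and KLF6 (0.928 and 0.910) and for AXIN2 PEX5 and SSNA1 (0.908 and 0.895). For the low genes WNT5B (ARHGAP42 and SLC40A1, 0.880 and 0.870) and LEF1 (PLEKHH1 and RPF2, 0.853 and 0.807) the values were lower.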

How the data were processed

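The 12 libraries were made from poly(A) RNA. The authors deposited raw read counts per gene, which are whole and sum to a different total for each sample. The submitters' processing notes name STAR 2.7.1a, featureCounts 1.6.2 and the builds GRCh38 and GRCm38, with no role or order, and annotation, strand and filters are not given in the sources used here. Of 60605 lines, 20014 with no name (0.485% to 0.822% of reads) were left out. Columns were matched to samples by library name. Libraries of a group differed by more than sampling noise in every pair, so each was counted as 1.

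The counts were fitted with edgeR 4.0.16 (R 4.3.3, limma 3.58.1): TMM scaling, filterByExpr, 1 mean per group over all 12 libraries, 8 residual degrees of freedom, two-sided tests, Benjamini-Hochberg over 15179 genes. SE is the log2 fold change over the root of F, and values after ± are SDs (n = 3). The test was checked on simulated counts. These had the same spread for every gene and changes in GSTA4 only, so they do not cover libraries that stand apart from their group. The members, gene lists and naming rule were chosen with earlier results of these data known. The rule named all 10 members and, per role list, up to 3 genes with the lowest F test p at a mean of 1 CPM or more, and for each member tested the 2 genes with the highest r of log2(CPM + 0.5). The alternatives tried were DESeq2 1.42.0, scaling by RLE or by library size alone, keeping all genes with a read, a minimum mean of 1 CPM, a replicate block, each library left out, only the 6 libraries compared, WT as the control and, added after seeing the data, GFP replicate 1 and WT replicate 1 both left out. Protein sequences were not used here.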

Additional observations from a re-analysis of the deposited data

How the results depend on the processing

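Of 15 member and comparison pairs past the threshold, 11 kept their call and direction in every alternative, those of DKK3, SFRP1 and TCF7L1 among them, and DKK1 in GSTA4 against GFP reversed only with WT as the control (-0.23). Of 94 such pairs of the other named pathway genes, 77 kept theirs. The number of members past the threshold in OSK against GFP was 2 with DESeq2 and 2 to 5 with each library left out, and by the F test over the 4 groups 4 to 7 with each library left out, as WNT5A, WNT5B and AXIN2 lie near the threshold. With each library left out it was 3 to 4 in GSTA4 against GFP, 5 in OSK against GSTA4 and 2 to 3 in GFP against WT. The wider list gave 35 to 49 in GSTA4 and 55 to 65 in OSK against GFP, 52 to 64 between OSK and GSTA4 and 25 to 33 between GFP and WT. With WT as the control, the sign also changed for DKK1 (-0.44), KREMEN1 (0.21), CAMK2D (0.36) and TCF7 (0.32) in OSK, and for ZNRF3 (0.058) and ROR1 (0.26) in GSTA4. Of these, only CAMK2D was past the threshold against both controls. DKK1, KREMEN1 and ROR1 were past it only against WT, and TCF7 and ZNRF3 only against GFP. The cause was not tested. A further 60 changes of sign were between values that were both not past the threshold.

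Replicate numbers did not pair the samples throughout. Deviations from group means correlated at -0.0357 to 0.197 between same-numbered libraries, over 0.1 in 3 of 18 pairs. Those 3 pairs were WT replicate 1 with replicate 1 of GFP (0.184), GSTA4 (0.197) and OSK (0.157). In all, 1 of 12 libraries correlated best with its own number in every other group. With the replicate number as a block, 4 members passed in GSTA4 and 4 in OSK against GFP, 5 between OSK and GSTA4, 7 by the F test and 3 between GFP and WT, where DKK3 was added (adjusted p 0.0267). Depth limits WNT5B and LEF1, with 2 to 34 reads a library, and WNT7B and DKK2, at or near the floor.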

Other observations

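KREMEN2, a DKK co-receptor, and TRABD2A, a protease that inactivates WNT proteins, stood near the floor in most other libraries and higher in OSK, and were chosen after their values were seen. KREMEN2 had 2.13, 2.97 and 1.47 CPM in OSK against 0 to 0.475 in the other 9 libraries. It passed the filter on low counts only through the OSK libraries, so its difference is given without a test. TRABD2A had 6.25, 5.69 and 6.53 CPM in OSK against 0.220 to 1.44 elsewhere, the highest of these in GFP replicate 1, and differed from GFP by 2.98 on the log2 scale (SE 0.37, edgeR adjusted p 1.22e-06).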
